A study of Mus musculus with 9 samples.

Results

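The comparison described here sets livers of mice given recombinant human cytoglobin (rhCYGB) during the last 2 weeks of a course of thioacetamide (TAA) against livers of mice given TAA with saline. It takes 6 of the 9 RNA libraries of the study, 3 per group, chosen by their labels, and covers all 14731 genes that passed a filter on low counts, of 24532 in the table. All mice were wild-type C57BL/6, and all received TAA by injection into the abdomen, 2 times a week in rising doses, for 10 weeks. The controls (replicates 12, 13 and 14, called TAA) received saline. The 2-week group (replicates 17, 18 and 19) received rhCYGB at 2 mg/kg into the tail vein 2 times a week, and the liver was taken 2 days after the last dose. The remaining 3 libraries (replicates 23, 27 and 28) come from mice given the same dose for the last 5 weeks and are used where they show how a gene stood after the longer course. The labels give neither age nor sex, no liver without TAA is included here, and nothing in the labels ties a replicate number to an animal of its own. The p-values therefore rest on the spread between the deposited samples, which may be technical.

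TAA is oxidised in hepatocytes to reactive products that kill cells around the central vein, and repeated doses give scarring with regeneration. The scar is made largely by hepatic stellate cells, which lose their vitamin A stores, take on contractile proteins and secrete collagen. Cytoglobin is a globin of stellate cells that binds oxygen and nitric oxide and scavenges radicals, and the comparison asks what the protein, given to an already injured liver, does to the liver's messenger RNA. In such whole-tissue RNA, fewer cells of a type and less RNA per cell cannot be told apart.

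Library totals ran from 55655727 to 87289945 estimated reads, with replicate 18 the deepest, and 15772 to 16413 genes had reads. Levels below are CPM, counts scaled to a common library size, by TMM normalisation, and a gene is called where the Benjamini-Hochberg adjusted p of edgeR's quasi-likelihood test is under 0.05. Log2 CPM of replicates correlated across genes, which are not independent, at 0.9768 to 0.9796 within TAA, at 0.9718 to 0.9773 within the 2-week group and at 0.9544 to 0.9723 between them. Hepatocyte genes were at high levels: albumin (Alb) stood at 80219 to 90784 CPM in TAA and 85299 to 119704 CPM at 2 weeks. Transthyretin (Ttr) stood at 6034 to 7555 CPM and 9707 to 12252 CPM, and exocrine pancreas, skeletal muscle and mesothelial genes summed to at most 15.1, 3.21 and 14.8 CPM in these 6 libraries. The mouse gene Cygb, which the injected human protein does not supply, stood at 29.0, 19.3 and 26.1 CPM in TAA and 15.5, 21.2 and 14.1 CPM at 2 weeks. The Cygb groups overlapped, and the log2 difference was -0.55 ± 0.32 (SE, adjusted p = 0.317).

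Between the groups, 488 of 14731 genes were called, 3.31% of those tested. Of these, 291 were higher at 2 weeks (1.98%) and 197 lower (1.34%), so that 59.6% of calls were rises. That share was 45.1% with upper quartile scaling and 6.39% with libraries scaled by their totals alone. Without regard to a test, the 3 libraries at 2 weeks all lay above the 3 TAA libraries for 2550 genes (17.3%) and all below them for 2408 genes (16.3%). Shares of called members in the gene groups below are to be read against these values. The groups were chosen with earlier results of these data known, so an excess in one describes it and is no test. Genes of detoxification, fuel metabolism, secreted liver proteins and cytotoxic lymphocytes were among those that rose, and genes of collagen, other matrix proteins, contraction and cell division among those that fell. The median log2 difference of all genes tested was -0.03. By library totals it was -0.36, so each direction is relative to the common scale, and medians that change sign with totals are marked.

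**Figure D1:**
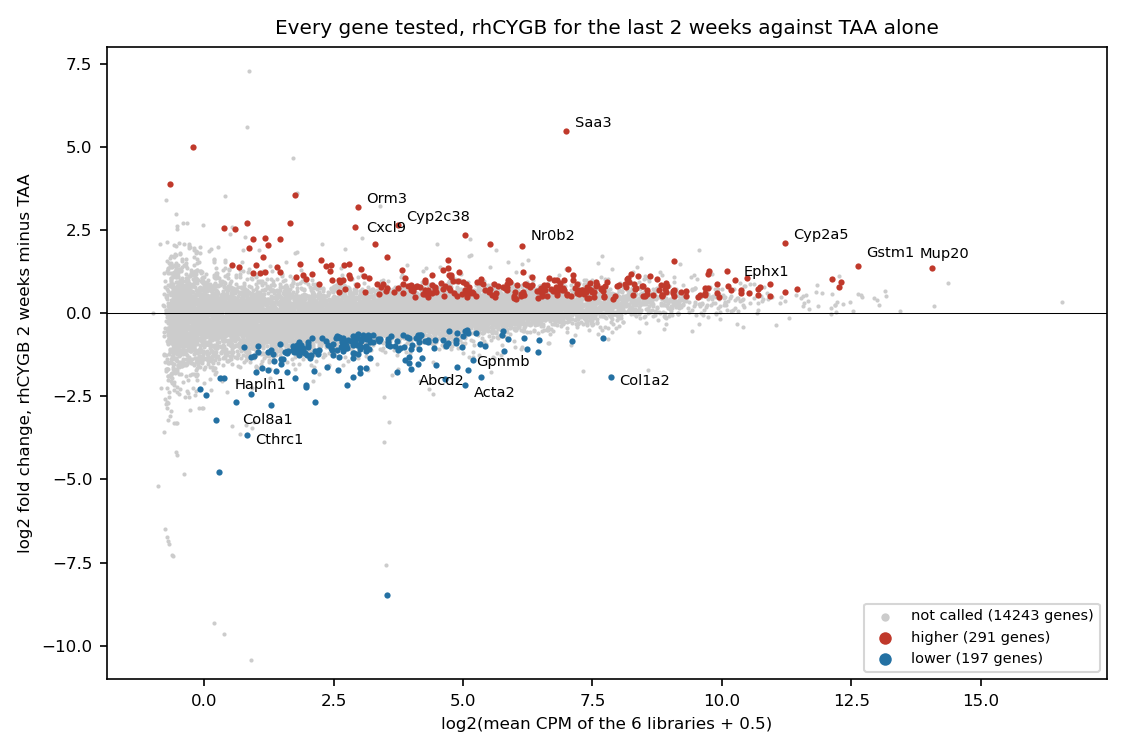
Each point is 1 of the 14731 genes tested. The horizontal axis is the mean level of the 6 libraries as log2(CPM + 0.5) and the vertical axis the log2 fold change, rhCYGB 2 weeks minus TAA, with the 291 genes called higher in red, the 197 called lower in blue and the rest in grey. Saa3 is the called gene with the largest rise, and the called point under -8 is Adnp, whose reads are described below.

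Among genes of the scar more were called lower than higher at 2 weeks, and most were not called. Acta2, the smooth muscle actin of myofibroblasts (gene ID 11475, mm10 chromosome 19, 34240336 to 34255373), stood at 43.8, 37.6 and 77.1 CPM in TAA and 9.69, 18.1 and 7.88 CPM at 2 weeks. All 3 treated libraries lay below all 3 TAA libraries, and Acta2 fell 4.43-fold (log2 change -2.15 ± 0.42, adjusted p = 0.0327). Of 29 tested genes of myofibroblasts and contraction, 2 fell and 27 were not called, with a median log2 difference of -0.76, and 13 lay lower in every treated library than in any TAA library. Beside Acta2, the tropomyosin Tpm4, which stabilises actin filaments, fell by 0.76 ± 0.13 on the log2 scale. Smooth muscle genes of the same list lay apart without being called. Tagln stood at 41.2, 37.6 and 74.8 CPM against 19.8, 29.7 and 12.6 CPM (adjusted p = 0.110), and Myh11, a smooth muscle myosin, at 9.62, 7.74 and 14.5 CPM against 4.22, 5.41 and 2.83 CPM (adjusted p = 0.0854). Desmin (Des) stood at 8.86 to 19.1 CPM and 9.62 to 16.7 CPM, and the receptor Pdgfrb at 22.6 to 32.7 CPM and 17.6 to 26.2 CPM, both overlapping.

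Fibrillar collagens, the rope-forming proteins of scar, had the lowest median of the 64 gene groups, -1.61 over 9 tested genes. Of these, 3 fell, 1 rose and 5 were not called. Col1a2, a chain of type I collagen, stood at 429.8, 272 and 389 CPM in TAA and 65.4, 161 and 63.5 CPM at 2 weeks. Replicate 18 was the highest of the treated libraries, and Col1a2 fell 3.77-fold (log2 change -1.91 ± 0.42, adjusted p = 0.0440). The type V chains, which nucleate type I fibrils, stood at 57.4 to 67.0 CPM (Col5a2) and 40.6 to 46.9 CPM (Col5a1) in TAA. At 2 weeks Col5a2 stood at 11.9, 23.3 and 14.9 CPM and fell 3.78-fold, and Col5a1 stood at 12.1, 19.8 and 11.2 CPM and fell 3.06-fold. The third type V chain rose: Col5a3 stood at 36.3, 34.3 and 31.0 CPM in TAA and 50.3, 70.3 and 66.9 CPM at 2 weeks, 1.85-fold higher (adjusted p = 0.0336). Col1a1 and Col3a1, main chains of scar collagen, were not called. Col1a1 stood at 462, 224 and 390.0 CPM against 62.1, 179 and 48.0 CPM (log2 difference -1.90 ± 0.56, adjusted p = 0.0853). Its difference was -2.70 without 2-week replicate 18 and -1.58 without 2-week replicate 19. Col3a1 stood at 676, 475 and 599 CPM against 119, 263 and 151 CPM (-1.71 ± 0.40, adjusted p = 0.0507). In both the groups did not overlap, and replicate 18 was again the highest treated library.

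Among 24 tested collagens of other kinds, 4 fell and 20 were not called, with a median of -0.83. Col8a1, a short-chain collagen of vessel walls and scar (gene ID 12837, mm10 chromosome 16, 57624256 to 57754737), stood at 3.64, 2.51 and 4.09 CPM in TAA and 0.310, 0.583 and 0.584 CPM at 2 weeks. Every treated library lay far below the lowest TAA library, and Col8a1 fell 6.85-fold (log2 change -2.78 ± 0.35, adjusted p = 0.0161). Col4a1, a chain of the basement membrane network, stood at 119.6, 119.7 and 121 CPM against 46.5, 65.4 and 48.3 CPM and fell 2.25-fold. Col12a1 and Col15a1, which sit on fibril surfaces and under basement membranes, fell 1.84-fold and 1.57-fold. Enzymes that modify and cross-link collagen were mixed, with 2 of 24 lower, 1 higher and a median of -0.29. The lysyl oxidase Loxl2 stood at 25.5, 26.1 and 24.3 CPM against 6.34, 11.2 and 8.52 CPM and fell 2.91-fold. The lysyl hydroxylase Plod2 fell 2.15-fold, while P4ha2, a prolyl hydroxylase, rose 1.54-fold. Lox could not be read as a group difference, since TAA replicate 12 had 0.211 CPM against 10.4 and 10.9 CPM in 13 and 14, and 1.75 to 3.36 CPM at 2 weeks (adjusted p = 0.324).

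Matrix glycoproteins, which tie collagen to cells, had 8 of 39 tested genes lower, 31 not called and a median of -0.56. Hapln1, which links hyaluronan to proteoglycans (gene ID 12950, mm10 chromosome 13, 89540636 to 89611832), stood at 6.08, 5.64 and 4.93 CPM in TAA and 1.47, 1.05 and 1.22 CPM at 2 weeks. The libraries of each group lay close together, and Hapln1 fell 4.46-fold (log2 change -2.16 ± 0.21, adjusted p = 0.00892). Cthrc1, a secreted protein of activated fibroblasts, stood at 2.02, 2.89 and 2.20 CPM against 0.145, 0.266 and 0.128 CPM (fell 12.7-fold, adjusted p = 0.0379). Thrombospondin 1 (Thbs1), which can release latent TGF beta, stood at 7.49, 10.8 and 13.9 CPM against 2.56, 3.18 and 2.81 CPM (fell 3.76-fold). Tenascin C (Tnc), a protein of remodelling tissue, stood at 9.02, 12.8 and 13.3 CPM against 2.73, 5.35 and 1.99 CPM (fell 3.48-fold). The other members called lower were Thbs2, the microfibril protein Fbn1 and the basement membrane proteins Lamc1 and Nid1, 1.46-fold to 2.80-fold lower. Of 20 proteoglycans Lum, which controls fibril width, fell 2.20-fold and 19 were not called (median -0.24).

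Proteases that cut matrix and their inhibitors had 6 of 33 tested genes lower, 27 not called and a median of -0.75. The urokinase Plau, which turns plasminogen into plasmin, stood at 3.45, 4.30 and 3.98 CPM in TAA and 0.847, 1.44 and 1.15 CPM at 2 weeks, and it fell 3.39-fold. Its relative Plat fell 2.65-fold. The macrophage elastase Mmp12 stood at 21.2, 25.5 and 30.4 CPM against 10.5, 9.75 and 9.86 CPM and fell 2.56-fold (adjusted p = 0.0153). Adamts1 and the inhibitor Timp3 fell 2.28-fold and 1.99-fold. Timp1 stood at 7.98, 8.27 and 18.9 CPM against 5.43, 6.79 and 2.08 CPM (log2 difference -1.29 ± 0.54, adjusted p = 0.186), and Mmp2 at 24.0 to 37.8 CPM against 18.9 to 34.0 CPM. Called genes of both kinds, those that cut matrix and those that inhibit cutting, were lower.

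Signals upstream of the scar gave few calls. Of 36 genes of TGF beta and activin signalling 2 fell (median -0.29): Inhba, the activin A subunit, at 6.79, 9.94 and 8.49 CPM against 2.36, 2.31 and 2.99 CPM (3.30-fold lower), and the follistatin-like Fstl1 (2.65-fold lower). Tgfb1 itself stood at 13.1 to 14.8 CPM and 11.2 to 15.3 CPM (log2 difference -0.14 ± 0.17, adjusted p = 0.646). In the list kept for PDGF, EGF and HGF family signalling 1 of 31 genes fell, the EGF receptor ligand Btc (2.08-fold lower). In the same list 1 rose, the hepatokine Fgf21, which is of the FGF family (0.374, 0.514 and 0.659 CPM against 1.41, 1.80 and 0.986 CPM). Among 27 YAP and TEAD targets Myof fell 2.14-fold (median -0.46), and among 23 integrins the laminin receptor chain Itga6 fell 1.94-fold (median -0.42). Of 22 genes of quiescent stellate cells Angptl6 rose 1.90-fold and 21 were not called (median -0.26). Of 24 cholangiocyte genes edgeR called 0 (2 lower at an unadjusted p under 0.05), DESeq2 called 2 lower and limma on log2(FPKM + 1) 2 lower. Their median was -0.16, and 0.04 without TAA replicate 14. The limma fit used FPKM without TMM scaling, and its median over all genes was -0.26, with 1348 of 1464 calls lower. Counts called lower by limma, here and below, are to be read against that shift. Krt19, a duct keratin, stood at 7.28, 6.90 and 21.6 CPM against 12.6, 21.2 and 7.06 CPM.

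Cell division was the group with the most falls. Of 57 tested genes of mitosis 28 fell and 29 were not called, with a median log2 difference of -0.81, and 52 lay lower in every treated library. Of 48 genes of DNA replication 15 fell and 33 were not called (median -0.60). In both groups the share called is above the 1.34% of all genes called lower. The lists were chosen with earlier results of these data known, so this describes them and is no test. Mki67, which coats mitotic chromosomes, stood at 54.1, 57.7 and 56.9 CPM in TAA and 21.7, 31.7 and 32.0 CPM at 2 weeks and fell 1.97-fold (log2 change -0.98 ± 0.16, adjusted p = 0.0240). The TAA libraries were within a narrow range, and replicate 17 was the lowest treated library for Mki67. Replicate 17 was also the lowest for the spindle motor Kif15 (2.86, 1.98 and 2.77 CPM against 0.599, 0.735 and 1.11 CPM, 3.11-fold lower) and the checkpoint kinase Bub1 (5.83, 5.19 and 4.44 CPM against 1.47, 2.14 and 2.5 CPM, 2.52-fold lower). Neil3, a DNA glycosylase of dividing cells, fell 3.32-fold, and the condensin subunit Smc2 fell 2.5-fold. The other called members include the kinase Plk1, the cyclin Ccna2, the factor Foxm1, which turns on mitotic genes, and the survivin gene Birc5, 1.62-fold to 2.01-fold lower. Cdk1 and Ccnb1, the kinase and cyclin that start mitosis, were not called. Ccnb1 stood at 22, 28 and 30.2 CPM against 13.4, 15.9 and 20.1 CPM (adjusted p = 0.0588), and Cdk1 at 32.5, 36.9 and 36.0 CPM against 19.2, 23.2 and 29.7 CPM (adjusted p = 0.0896).

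Genes that open replication origins were among the falls. Cdc6, which loads the MCM helicase onto origins (gene ID 23834, mm10 chromosome 11, 98907889 to 98923942), stood at 2.96, 2.91 and 2.58 CPM in TAA and 0.806, 0.861 and 0.913 CPM at 2 weeks. Each group was tight, and Cdc6 fell 3.27-fold (log2 change -1.71 ± 0.20, adjusted p = 0.0144). The helicase subunits Mcm3, Mcm4, Mcm5 and Mcm6 fell 2.00-fold to 2.35-fold. Uhrf1, which keeps DNA methylation through replication, stood at 14.1, 12.9 and 10.5 CPM against 2.64, 4.93 and 4.31 CPM and fell 3.15-fold. The checkpoint adaptor Clspn fell 3.37-fold, and the repressor E2f7 stood at 0.943, 0.602 and 0.673 CPM against 0.103, 0.228 and 0.110 CPM (4.83-fold lower). Mcm10, another origin factor, stood at 38.1, 31.9 and 27.2 CPM against 9.40, 11 and 12.6 CPM and fell 2.94-fold (adjusted p = 0.0161). Its level is less certain than that of the others, because the reads sit on one RefSeq transcript in replicates 13, 17, 18, 19 and 27 and on another in 12, 14, 23 and 28.

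Promoters of dividing-cell genes are shown because so many of these genes moved together, and because 3 short motifs are known to regulate the class. The CCAAT box binds NF-Y, the CHR element binds complexes that switch mitotic genes, and E2F sites serve genes of replication. RefSeq (GRCm38.p6) gave windows of the 250 bases before the start for 11652 of 14731 tested genes (14775 windows). Both strands were searched, and each motif was counted on its own, whether or not it overlapped another. CCAAT was present in 35 of 49 windows of mitosis genes (71.4%) and 29 of 45 of replication genes (64.4%), against 35.2% of all windows. The CHR letters TTTGAA were present in 18 of 49 mitosis windows (36.7%), against 11.2% of all, and in 6 of 45 replication windows (13.3%), with 0 of the 15 windows of called replication genes among them. The E2F letters TTTNNCGC were present in 12 of 45 replication windows (26.7%) and 8 of 15 of the called replication genes (53.3%), against 6.46% of all. Called replication genes held CCAAT in 13 of 15 windows. Called mitosis genes were close to their whole list, with CCAAT in 17 of 24 windows (70.8%) and CHR in 9 of 24 (37.5%). Over all calls, CHR was in 46 of 288 windows of genes called higher and 26 of 180 of those called lower. CCAAT was in 124 and 88 of these. AP-1, HNF4, NF-kB and antioxidant response letters, searched for other lists, were in at most 1 window of called members per list. These lists had 1 to 14 such windows each. Over whole lists, HNF4 letters were in 8 of 50 cytochrome P450 windows and 0 of 57 secreted protein windows, against 0.46% of all. NF-kB letters were in 6 of 37 windows of the chemokine list and 0 of 29 acute phase windows, against 1.2%. Antioxidant response letters were in 8 of 48 NRF2 and 4 of 28 glutathione transferase windows, against 11.6%. AP-1 letters were in 0 of 24 immediate early and 2 of 39 matrix glycoprotein windows, against 5%. A match describes letters and not a bound site. The windows below belong to the called mitosis genes of lowest p that hold both CCAAT and CHR letters, and to Cdc6, which holds an E2F match. They run 5′ to 3′ on the strand of the gene, and capitals mark matches to any of the 3 motifs on either strand.
Top2a (chr11:99024190-99024439, minus strand): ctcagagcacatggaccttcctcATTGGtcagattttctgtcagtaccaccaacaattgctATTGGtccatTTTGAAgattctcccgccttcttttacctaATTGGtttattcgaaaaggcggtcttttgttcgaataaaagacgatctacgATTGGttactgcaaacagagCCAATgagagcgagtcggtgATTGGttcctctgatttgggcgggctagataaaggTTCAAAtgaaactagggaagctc
Ckap2l (chr2:129297213-129297462, minus strand): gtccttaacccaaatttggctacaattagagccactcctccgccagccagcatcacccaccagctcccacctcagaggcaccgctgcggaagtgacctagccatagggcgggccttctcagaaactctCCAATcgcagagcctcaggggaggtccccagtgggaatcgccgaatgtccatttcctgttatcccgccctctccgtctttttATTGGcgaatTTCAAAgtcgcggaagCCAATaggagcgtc
Mki67 (chr7:135716380-135716629, minus strand): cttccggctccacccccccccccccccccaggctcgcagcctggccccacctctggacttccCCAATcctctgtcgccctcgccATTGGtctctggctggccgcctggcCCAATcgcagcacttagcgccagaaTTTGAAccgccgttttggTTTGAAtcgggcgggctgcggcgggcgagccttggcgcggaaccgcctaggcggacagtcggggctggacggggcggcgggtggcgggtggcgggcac
Cdc6 (chr11:98907901-98908150, plus strand): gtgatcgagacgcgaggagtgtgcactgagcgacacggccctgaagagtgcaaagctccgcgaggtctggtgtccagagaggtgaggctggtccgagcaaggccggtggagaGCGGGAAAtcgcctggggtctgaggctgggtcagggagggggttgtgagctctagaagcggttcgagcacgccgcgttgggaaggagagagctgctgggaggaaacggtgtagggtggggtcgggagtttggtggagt
Top2a, the topoisomerase that untangles chromosomes, holds 6 CCAAT and 2 CHR matches. It stood at 28.5, 31.7 and 25.2 CPM in TAA and 10.9, 14.9 and 15.7 CPM at 2 weeks and fell 2.06-fold. Ckap2l, a spindle protein, stood at 14.7, 16.3 and 13.2 CPM against 6.98, 8.63 and 7.26 CPM and fell 1.93-fold. Top2a and Ckap2l were chosen for their windows, outside the rule for named genes. In Mki67 the CHR matches begin 116 and 98 bases before the start. Cdc6 has 2 transcripts, and its window begins at 98907901, inside the gene as placed above (from 98907889). The window therefore precedes a later start than the first, and the E2F match begins 138 bases before that later start.

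**Figure D2:**
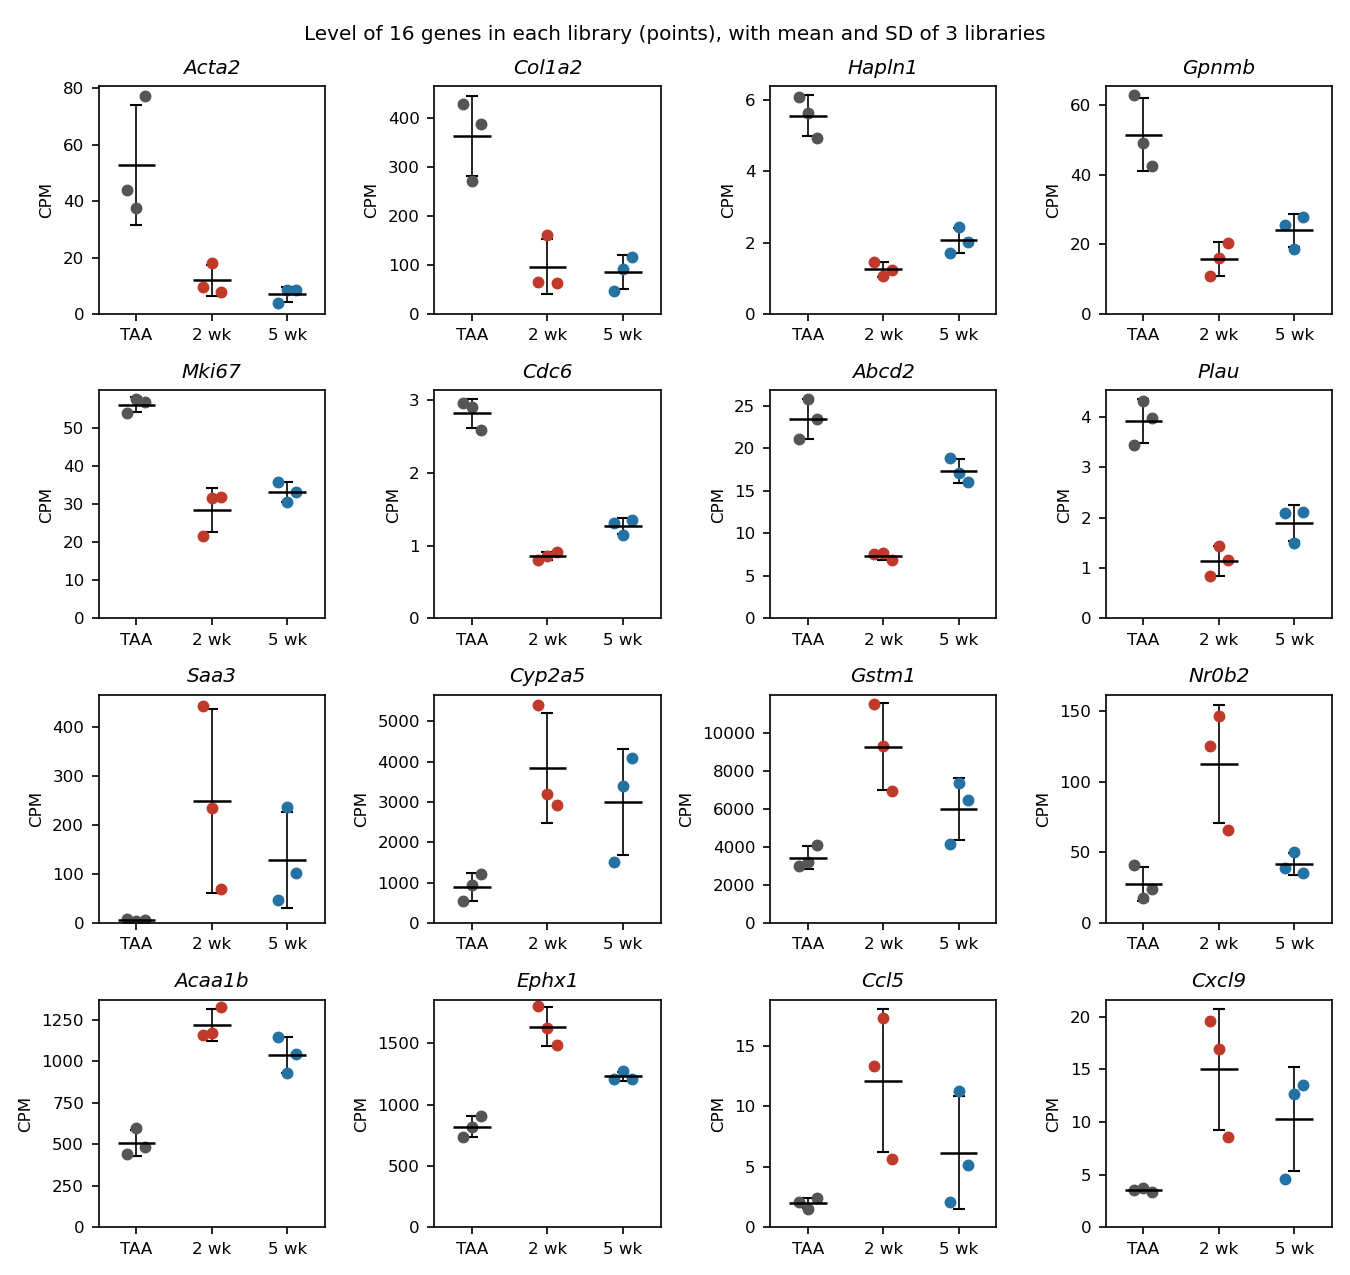
Each panel gives the level of 1 gene in CPM (vertical axis, from 0) in the 3 libraries of each group (points), with the mean (line) and SD (bars) of 3 libraries. In these 16 genes the 2-week libraries lie entirely below TAA in the upper 8 panels and entirely above in the lower 8.

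Immune genes gave calls in both directions. Of 34 tested genes of T and NK cells 4 rose and 30 were not called, with a median log2 difference of 1.22, the highest of the 64 groups, and 19 lay higher in every treated library, against 17.3% of all genes. Ccl5, a chemokine made by cytotoxic lymphocytes, stood at 2.06, 1.56 and 2.39 CPM in TAA and 13.3, 17.3 and 5.68 CPM at 2 weeks. Replicate 19 was the lowest treated library, still above every TAA library, and Ccl5 rose 6.03-fold (adjusted p = 0.0457). The granule protein Nkg7 stood at 0.910, 0.881 and 0.618 CPM against 4.42, 4.28 and 2.52 CPM (rose 4.66-fold), and the CD8 chain Cd8b1 at 0.228, 0.250 and 0.220 CPM against 1.49, 1.87 and 0.748 CPM (rose 5.87-fold). Granzyme K (Gzmk) was at 0 in replicates 12 and 14, at 0.0588 CPM in 13 and at 0.641, 0.798 and 0.639 CPM at 2 weeks (adjusted p = 0.0255). Its fitted log2 change of 5.00 (8.43 without TAA replicate 13, 4.42 without TAA replicate 14) therefore rests on a single TAA library with reads. The signalling adaptor Sh2d2a and the surface protein Cd7, both of T and NK cells, rose 5.82-fold and 4.74-fold. The whole list summed to 20 to 29.5 CPM in TAA and 41.4 to 61.5 CPM at 2 weeks, so these are low levels, and Ifng and Trat1 were at 0 in all 6 libraries. The invariant T cell chain Cd3e stood at 0.382 to 0.471 CPM and 0.767 to 1.78 CPM (adjusted p = 0.336) and was not called.

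Of 38 tested genes of the interferon gamma response and antigen presentation 4 rose and 34 were not called (median 0.19, and -0.14 by library totals). Cxcl9, a chemokine that draws T cells, stood at 3.59, 3.73 and 3.35 CPM against 19.6, 16.9 and 8.54 CPM and rose 4.21-fold. The class I antigen presentation gene H2-K1 stood at 734, 616 and 699.5 CPM against 1319, 1249 and 1167 CPM (rose 1.82-fold, adjusted p = 0.0235). H2-D1 and B2m rose 1.52-fold and 1.53-fold. Ubd, a ubiquitin-like protein induced by interferon gamma, stood at 0.423, 0.426 and 1.24 CPM against 6.41, 4.74 and 2.59 CPM and rose 6.53-fold. Its log2 change was 2.71, with 3.42 without TAA replicate 14 and 2.39 without 2-week replicate 17. Cxcl10, induced by both kinds of interferon, stood at 5.53, 9.78 and 10.9 CPM against 5.64, 4.07 and 4.58 CPM (adjusted p = 0.168). Genes stimulated by type I interferon had a median of -0.47. Of these 34, 1 rose, the membrane tether Bst2 (1.65-fold), and 19 lay lower in every treated library without a call. DESeq2 called 10 of them lower.

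Macrophage genes gave falls in one list and rises in another. Of 31 genes of infiltrating and scar-associated macrophages 4 fell and 27 were not called (median -0.35). Gpnmb, a glycoprotein of lipid-laden macrophages (gene ID 93695, mm10 chromosome 6, 49036518 to 49058182), stood at 62.8, 49.1 and 42.4 CPM in TAA and 10.8, 16.2 and 20.3 CPM at 2 weeks. The groups lay well apart, and Gpnmb fell 3.26-fold (log2 change -1.7 ± 0.25, adjusted p = 0.0240). The others called were Mmp12, described above, the lipoprotein lipase Lpl (2.13-fold lower) and the fractalkine receptor Cx3cr1 (7.07, 5.92 and 5.88 CPM against 3.22, 3.71 and 2.70 CPM, 1.95-fold lower). Ccr2, the receptor that brings monocytes in, stood at 15.5, 13.6 and 11.6 CPM against 5.00, 8.60 and 8.25 CPM (adjusted p = 0.0571). Genes of resident Kupffer cells had 2 of 18 higher (median 0.30, and -0.03 by library totals). The Kupffer cell lectin Clec4f stood at 57.4, 80.7 and 72.0 CPM against 114, 115 and 149 CPM (rose 1.80-fold), and the ficolin Fcna rose 2.03-fold. The pan-macrophage gene Adgre1 stood at 21.6, 24.2 and 16.5 CPM against 13.2, 15.5 and 27.3 CPM and the groups overlapped. Of 20 neutrophil genes the granule protease Prtn3 fell 4.64-fold (median -0.34, and 0.77 without TAA replicate 12), while S100a8 stood at 3.44 to 17.1 CPM and 4.80 to 12.9 CPM. Of 39 genes of chemokines, TNF and interleukin 1 the alarmin Il33 fell 2.09-fold and 38 were not called (median -0.18). Tnf and Il1b overlapped between groups, at 0.331 to 0.618 CPM and 1.76 to 5.49 CPM over the 6 libraries. Among 18 genes of B and plasma cells edgeR called 0 (1 higher at an unadjusted p under 0.05, 1 higher by DESeq2 and 0 by limma).

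Acute phase genes, which rise in inflammation, held the largest rise among called genes. Which cells made these transcripts cannot be told from whole-tissue RNA. Saa3, a serum amyloid (gene ID 20210, mm10 chromosome 7, 46711998 to 46715676), stood at 7.31, 3.39 and 6.17 CPM in TAA and 443, 235 and 68.3 CPM at 2 weeks. The treated libraries spread widely but all lay above TAA, and Saa3 rose 44.3-fold (log2 change 5.47 ± 0.82, adjusted p = 0.0240, and 4.76 without 2-week replicate 17). The orosomucoid Orm3 stood at 2.26, 0.573 and 1.54 CPM against 13.5, 5.73 and 20.5 CPM and rose 9.10-fold. Lbp, which binds bacterial endotoxin, stood at 71.4, 58.0 and 66.6 CPM against 137, 119 and 150 CPM and rose 2.07-fold. The relatives Saa1 and Saa2 lay higher in each treated library without a call, Saa1 at 299, 73.8 and 130.2 CPM against 709, 365 and 513 CPM (adjusted p = 0.125). Near-identical relatives can share reads in the Saa and Orm families, so each is uncertain as a single gene. In all 3 of 34 acute phase genes rose and 31 were not called (median 0.27, and -0.06 by library totals).

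Detoxification enzymes held many of the rises. Glutathione transferases, which attach glutathione to toxic products, had 11 of 22 tested genes higher and 11 not called, against 1.98% of all genes, and all 22 had a positive difference (median 0.75, and 0.41 by library totals). Gstm1, a mu class enzyme (gene ID 14862, mm10 chromosome 3, 108012250 to 108017973), stood at 2989, 3222 and 4100.1 CPM in TAA and 11529, 9304 and 6948 CPM at 2 weeks. The lowest treated library lay above the highest TAA library, and Gstm1 rose 2.69-fold (log2 change 1.43 ± 0.25, adjusted p = 0.0255). Gstm3 stood at 480.0, 646 and 813 CPM against 1828, 1519.7 and 1312 CPM (rose 2.40-fold), and Gsta4, which clears lipid peroxidation products, at 179, 167 and 219 CPM against 448, 391.6 and 333 CPM (rose 2.08-fold). Called besides were Gsta3, Gstm2, Gstm4, Gstm6, Gstp1, Gstp2, Gstk1 and Gsto1, 1.5-fold to 2.05-fold higher. Members of the mu and pi classes are similar enough that reads may be split between them.

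Cytochrome P450 enzymes, which oxidise drugs, steroids and fatty acids, had 14 of 59 tested genes higher and 45 not called (median 0.46, and 0.12 by library totals). Cyp2a5, a coumarin hydroxylase often raised in liver injury (gene ID 13087, mm10 chromosome 7, 26835339 to 26843264), stood at 532, 940.1 and 1222 CPM in TAA and 5410.5, 3208 and 2931 CPM at 2 weeks. The groups lay apart, and Cyp2a5 rose 4.29-fold (log2 change 2.1 ± 0.42, adjusted p = 0.0343). Cyp2c38 stood at 2.60, 4.92 and 3.13 CPM against 32.5, 21.5 and 12.7 CPM and rose 6.26-fold (adjusted p = 0.0208). Its neighbours Cyp2c37 (75, 73.2 and 73.0 CPM against 173, 185 and 197 CPM) and Cyp2c29 rose 2.51-fold and 2.05-fold. The 2d family gave Cyp2d9, Cyp2d10, Cyp2d11, Cyp2d22 and Cyp2d40, 1.76-fold to 2.28-fold higher, and the fatty acid hydroxylases Cyp4a12b, Cyp4a32, Cyp4f13 and Cyp4f15 rose 1.7-fold to 4.18-fold. The remaining called member was Cyp2a22 (1.73-fold higher). Cyp2e1, the enzyme that activates TAA, stood at 935, 602 and 559 CPM against 1208, 1109.7 and 1182 CPM, apart but not called (log2 difference 0.74 ± 0.20, adjusted p = 0.0739).

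Among 31 genes of glucuronidation and sulfation 3 rose (median 0.26, and -0.06 by library totals): Ugt2b5 (1.61-fold), Ugt2b36 (1.45-fold) and the sulfotransferase Sult2a7 (0.341, 0.499 and 0.165 CPM against 2.60, 1.23 and 2.85 CPM, 6.61-fold). NRF2 is the factor that turns on antioxidant genes. Of 44 of its targets and antioxidant enzymes 4 rose (median 0.43, and 0.09 by library totals). The epoxide hydrolase Ephx1 stood at 734, 818 and 906 CPM against 1804, 1621 and 1484 CPM (rose 2.00-fold, adjusted p = 0.0154), and the carbonyl reductase Cbr1 rose 2.16-fold. The superoxide dismutases rose as well, Sod1 of the cytosol from 668, 568 and 675 CPM to 1167, 1069 and 961 CPM and Sod2 of mitochondria from 132, 126 and 129 CPM to 208, 169.7 and 196 CPM. The inducible genes Hmox1 and Nqo1, which degrade heme and reduce quinones, were not called: Hmox1 stood at 34.8 to 44.8 CPM and 33.4 to 40.4 CPM, and Nqo1 at 25.3, 29.0 and 38.9 CPM against 56.5, 46.1 and 47.0 CPM (adjusted p = 0.212). Catalase (Cat) stood at 1864, 1628 and 1536 CPM against 2303, 2418 and 2279 CPM (adjusted p = 0.0670). The glutathione peroxidase Gpx1 stood at 315, 317 and 312 CPM against 728, 640.4 and 2186 CPM (log2 difference 1.91 ± 0.46, adjusted p = 0.0526, and 1.12 without 2-week replicate 19). Of 22 alcohol and aldehyde dehydrogenases Aldh2, which clears acetaldehyde, Aldh3b1 and Aldh16a1 rose 1.38-fold to 1.57-fold (median 0.29, and -0.04 by library totals).

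Fatty acid oxidation and ketogenesis had 9 of 48 tested genes higher and 1 lower (median 0.32, and -0.01 by library totals). The peroxisomal thiolase Acaa1b stood at 445, 597 and 482 CPM in TAA and 1162, 1169.9 and 1329 CPM at 2 weeks and rose 2.40-fold (log2 change 1.26 ± 0.14, adjusted p = 0.0138). Its twin Acaa1a stood at 129, 138 and 124 CPM against 209, 221 and 216 CPM and rose 1.65-fold. Mitochondrial steps followed: the isomerases Eci1 and Eci2, the dehydrogenases Acads, Acadvl and Hadh and the thiolase Acaa2 rose 1.41-fold to 1.76-fold. The fall was that of Abcd2, a peroxisomal carrier of very long chain fatty acids (gene ID 26874, mm10 chromosome 15, 91145871 to 91191807), at 21.1, 25.9 and 23.4 CPM against 7.60, 7.69 and 6.83 CPM. Abcd2 had the lowest p of all genes tested and fell 3.18-fold (log2 change -1.67 ± 0.13, adjusted p = 0.00317).

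Of 35 genes of glucose metabolism 6 rose (median 0.29, and -0.05 by library totals). Among them are the fructose kinase Khk (258, 209 and 268 CPM against 580.2, 583 and 445 CPM, 2.19-fold), the glucokinase regulator Gckr (1.80-fold), the glucose 6-phosphate carrier Slc37a4 (1.73-fold), Fbp1 (1.40-fold) and Ugp2 (1.45-fold). Of 35 genes of the urea cycle and amino acid breakdown 5 rose (median 0.35, and 0.02 by library totals). Gnmt, which uses up methyl groups, stood at 1036, 740.3 and 1032 CPM against 2090.5, 2205 and 1545 CPM and rose 2.08-fold, and the urea cycle enzyme Asl rose 1.89-fold. Haao, Cdo1 and Hgd rose 1.44-fold to 1.75-fold. Of 27 lipogenic genes the pyruvate kinase Pklr rose 1.89-fold (median 0.26, and -0.07 by library totals). Cholesterol synthesis had a median of -0.46 over 26 genes. There edgeR called 0 (11 lower and 2 higher at an unadjusted p under 0.05) and DESeq2 called 1 lower. The limma fit, whose calls over all genes were mostly falls, called 12 lower. Idi1 stood at 83.8, 85.0 and 73.2 CPM against 46.4, 44.7 and 43.2 CPM (adjusted p = 0.107).

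In bile acid metabolism 3 of 25 genes rose (median 0.27, and -0.06 by library totals). Nr0b2, the small heterodimer partner that represses bile acid synthesis (gene ID 23957, mm10 chromosome 4, 133553376 to 133556686), stood at 40.9, 17.9 and 24.3 CPM in TAA and 125, 147 and 65.7 CPM at 2 weeks. The groups did not overlap, and Nr0b2 rose 4.07-fold (log2 change 2.02 ± 0.35, adjusted p = 0.0255). Cyp7a1, the rate-limiting enzyme of that synthesis, lay the other way at 31.3, 55.2 and 19.1 CPM against 4.34, 8.49 and 6.64 CPM and was not called (log2 difference -2.43 ± 0.66, adjusted p = 0.0720). Cyp27a1 of the alternative pathway rose 1.78-fold and the bile acid ligase Slc27a5 rose 1.62-fold.

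Mitochondrial respiration genes lay higher almost throughout, with few calls. Of 53 nuclear genes of oxidative phosphorylation 4 rose and 49 were not called, while 50 lay higher in every treated library (median 0.60, and 0.26 by library totals). Cox4i1 stood at 333, 312 and 365 CPM against 587, 573 and 469 CPM (rose 1.61-fold), and Ndufa6, Ndufb8 and Sdhc rose 1.40-fold to 1.73-fold. All 54 genes of cytosolic ribosomal proteins had a positive difference on the TMM scale (median 0.39, and 0.05 by library totals), but edgeR called 0 (2 higher at an unadjusted p under 0.05), as did DESeq2 and limma. Of 31 proteasome genes edgeR called 0 (1 higher at an unadjusted p under 0.05), DESeq2 0 and limma 2 lower (median 0.22, and -0.11 by library totals). These transcripts are short, which bears on the length trend given below.

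Secreted liver proteins had 11 of 65 tested genes higher and 54 not called (median 0.32, and -0.02 by library totals). The thyroxine carrier Serpina7 stood at 10.8, 9.40 and 11.6 CPM in TAA and 98.9, 23.6 and 40.9 CPM at 2 weeks and rose 5.12-fold (log2 change 2.36 ± 0.46, and 1.60 without 2-week replicate 17). The complement chain C8g stood at 195, 163 and 202 CPM against 475, 404 and 386 CPM (rose 2.25-fold), and the apolipoprotein Apoc1 rose 2.04-fold. F12 and Serpinc1, a clotting factor and the inhibitor antithrombin, rose 1.66-fold and 1.44-fold, and Apoh, Serpinf1, C2, Mbl1, Mbl2 and Rbp4 rose 1.45-fold to 1.65-fold. Of 26 hepatocyte transcription factors and receptors Nr0b2 and the xenobiotic receptor Nr1i2 (61.8, 53 and 55.3 CPM against 114, 107 and 87.7 CPM, 1.82-fold) rose (median -0.13, and 0.01 with the length trend removed). Hnf4a was not called (464 to 482 CPM against 515 to 658 CPM, adjusted p = 0.167). Its antisense gene Hnf4aos stood at 0.520, 0.646 and 0.646 CPM against 3.10, 2.75 and 2.87 CPM (4.79-fold, adjusted p = 0.00892), but reads on the 2 strands cannot be told apart here.

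Genes that differ between male and female liver were among the rises. Of 20 genes usually higher in males 4 rose (median 0.76, and 0.42 by library totals, and 0.47 without 2-week replicate 17). The pheromone carrier Mup20 stood at 9201, 8667 and 11026 CPM against 30068, 24943 and 18416 CPM (rose 2.54-fold), Cyp4a12b at 16.9, 16.9 and 18.5 CPM against 101, 45.7 and 71.7 CPM (rose 4.18-fold), and Mup3 and Cyp2d9 rose 1.93-fold and 1.77-fold. Of 23 genes usually higher in females Sult2a7 rose and Abcd2 fell (median 0.32, and -0.02 by library totals). Major urinary protein genes are near copies of each other, so single members are uncertain. Of 19 genes of the growth hormone and IGF axis, which sets these patterns, edgeR called 0 (3 lower at an unadjusted p under 0.05), DESeq2 2 lower and limma 2 lower (median 0.07, and -0.27 by library totals).

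Stress and signalling groups gave few calls, 1 to 3 in those with any. Among 24 AP-1 and immediate early genes Fosl1, a partner of JUN, stood at 10.7, 7.70 and 12.2 CPM against 2.15, 2.83 and 1.86 CPM and fell 4.46-fold, Klf6 fell 1.52-fold and Klf10 rose 1.72-fold. Of 21 clock genes the heme-binding repressor Nr1d1 rose 1.84-fold (median -0.16). Of 30 genes of ER stress Chac1, which breaks down glutathione, rose 3.22-fold (1.24, 0.632 and 0.563 CPM against 2.5, 2.69 and 2.63 CPM). Of 25 cytoskeleton genes the neuronal tubulin Tubb3 (2.11, 2.78 and 2.05 CPM against 0.331, 0.355 and 0.602 CPM, 5.38-fold), the actin Actg1 (1.68-fold) and the linker Msn (1.74-fold) fell. The heme enzyme genes Alas2 and Urod rose 2.00-fold and 1.58-fold, the receptor Fas rose 1.62-fold, and Gabarapl1 and Atg7, both of autophagy, rose 1.59-fold and 1.43-fold. The p53 target Cdkn1a stood at 60.0 to 77.9 CPM and 53.5 to 69.6 CPM. Of 34 endothelial genes edgeR called 0 (6 lower and 3 higher at an unadjusted p under 0.05), DESeq2 3 lower and limma 6 lower. Of 21 oncofetal genes edgeR called 0 (4 lower and 2 higher at an unadjusted p under 0.05), DESeq2 and limma 3 lower each, and Afp stood at 63.8, 63.1 and 62.5 CPM against 40.9, 39.6 and 33.1 CPM (adjusted p = 0.243).

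**Figure D3:**
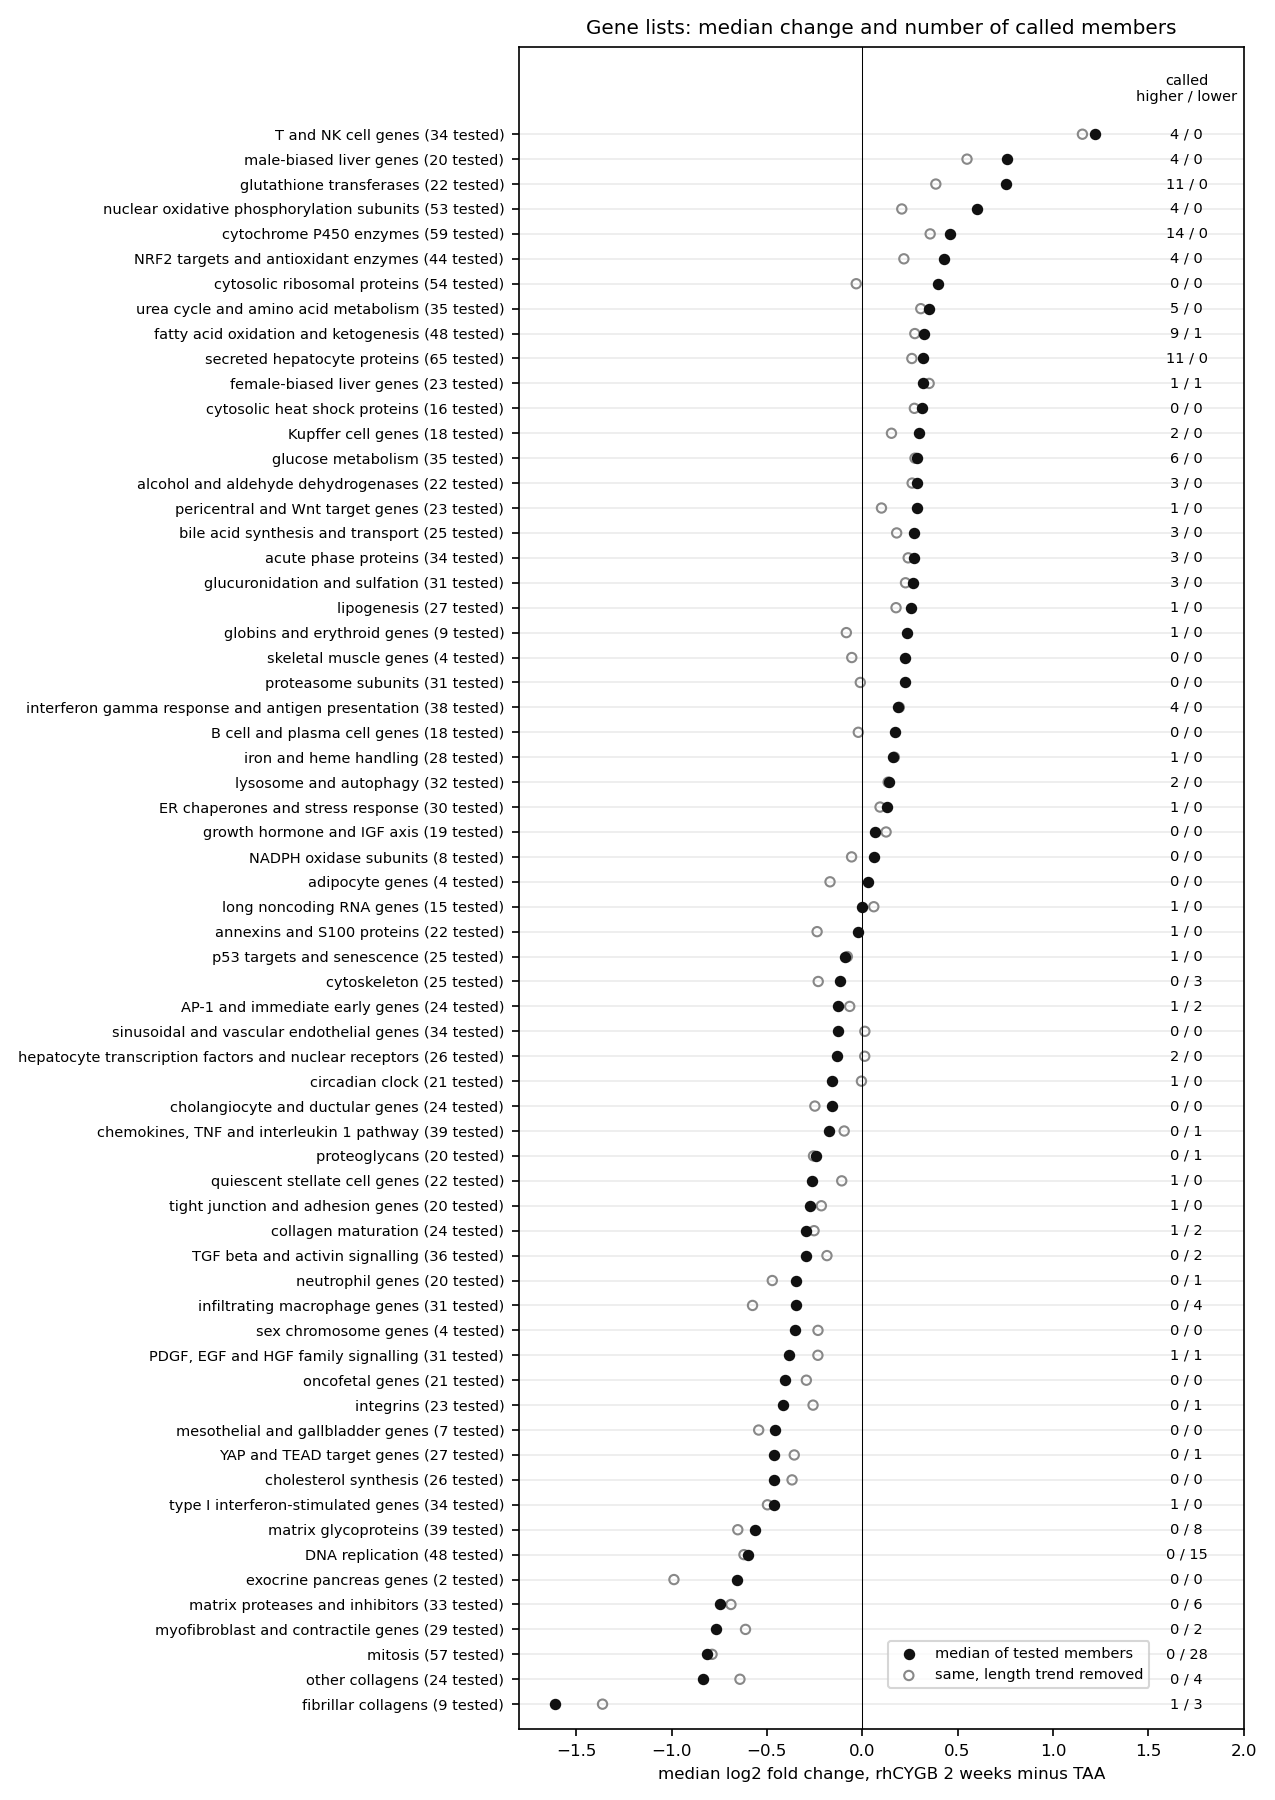
For each of the 64 gene groups the filled point is the median log2 fold change of its tested members, rhCYGB 2 weeks minus TAA, and the open point the same after removal of the trend over transcript length. Numbers at the right give members called higher and lower. Groups of collagen, contraction, proteases and cell division lie at the bottom, and T and NK cell genes and glutathione transferases near the top.

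Several genes with large or precise changes belong to no group above. Macrod1, a hydrolase that removes ADP-ribose, stood at 14.1, 10.3 and 13.8 CPM in TAA and 37.9, 41.1 and 36.3 CPM at 2 weeks and rose 3.02-fold (adjusted p = 0.0153). The mitochondrial carrier Slc25a47, a liver gene, stood at 338, 222 and 259 CPM against 926, 1002 and 503 CPM and rose 2.97-fold. The hepatic lipase Lipc stood at 85.6, 82.5 and 92.0 CPM against 217, 175 and 179.7 CPM and rose 2.20-fold. The kinase Mapk15, the transporter Slc17a4 and the protease Ctsf rose 2.45-fold, 2.12-fold and 1.94-fold, each with groups far apart. Ptgds, which makes prostaglandin D, stood at 0.780, 0.646 and 0.714 CPM against 3.37, 2.81 and 2.72 CPM and rose 4.15-fold. On the side of the falls, Gldn stood at 6.57, 6.86 and 6.77 CPM against 0.765, 0.557 and 1.88 CPM and fell 6.35-fold. Its log2 change was -2.67, with -3.36 without 2-week replicate 19 and -2.34 without 2-week replicate 18. The Golgi protein Golim4 stood at 40.0, 48.9 and 29.7 CPM against 7.52, 7.68 and 14.7 CPM (3.96-fold lower), the lipoxygenase-like Aloxe3 fell 6.41-fold, and Gprc5a and Nrep fell 3.83-fold and 3.37-fold. The stress-induced Zfand2a fell 2.13-fold with all libraries of a group close together. Sap25 stood at 0.371 to 0.520 CPM against 0.785, 9.93 and 5.07 CPM and rose 11.8-fold (log2 change 3.56, and 2.71 without 2-week replicate 18).

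The largest fitted fall among called genes, that of Adnp, a nuclear protein gene (gene ID 11538, mm10 chromosome 2, 168180965 to 168207112), is uncertain. Adnp stood at 25, 17.7 and 23.5 CPM in TAA and at 0, 0.0380 and 0.146 CPM at 2 weeks (adjusted p = 0.0396). A second entry of the table, the joined gene Dpm1-adnp, spans Adnp and its neighbour in RefSeq and stood at 0, 36.9 and 0 CPM in TAA and 56.4, 57.8 and 57.8 CPM at 2 weeks. In the 5-week group Adnp stood at 26.3, 0 and 30.8 CPM and Dpm1-adnp at 14.4, 59.0 and 0 CPM. Each library without Adnp reads had a high Dpm1-adnp count, so reads of the shared exons cannot be assigned to one of them. In all, 39 genes were under 0.5 CPM in 1 library and at 5 CPM or more in another of the same group, TAA or 2 weeks. Of these, 0 are among the 488 called genes, but such a spread within a group itself works against a call. The 0 therefore says little about shifted reads in called genes such as Adnp.

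The direct test of the longer against the shorter course separated few genes. Between 5 and 2 weeks 3 of 14731 genes were called (0.0204%), and 3421 had an unadjusted p under 0.05. Both comparisons with TAA share the TAA libraries, so values are only set side by side. Abcd2 stood at 18.9, 17.1 and 16 CPM at 5 weeks against 7.60, 7.69 and 6.83 CPM at 2 weeks, 1.23 ± 0.13 higher on the log2 scale (adjusted p = 0.0171), so its level after the longer course lay between the 2-week and TAA levels. The tight junction gene Tjp3 stood at 28.4, 29.1 and 28.1 CPM in TAA, 44.0, 45.6 and 41.4 CPM at 2 weeks and 20.9, 22.6 and 18.1 CPM at 5 weeks (log2 difference -1.09 ± 0.12, adjusted p = 0.0171). Mcm10 stood at 65.4, 41.9 and 56.4 CPM at 5 weeks, 2.31 ± 0.20 above the 2-week level (adjusted p = 0.00835), with the uncertainty over its transcripts given above. Among scar genes Acta2 stood at 3.83, 8.60 and 8.43 CPM and Col1a2 at 46.8, 92.5 and 116 CPM at 5 weeks. Saa3 stood at 46.5, 237 and 101 CPM, Gstm1 at 4162, 7337 and 6489.8 CPM and Nr0b2 at 38.6, 50.2 and 35.5 CPM. These 5 genes were not called between the courses (adjusted p = 0.261 for Acta2, 0.793 for Col1a2, 0.386 for Saa3, 0.191 for Gstm1 and 0.142 for Nr0b2), which does not show that they were alike.

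Transcript length moved with the difference. The log2 difference between 2 weeks and TAA had a Spearman correlation of -0.42 with length over the genes tested, and genes are not independent of each other. The median was 0.40 for genes of up to 1080 bases and -0.26 for genes of 6029 bases or more, and the median length was 1595 bases for genes called higher and 3619 bases for those called lower. Libraries of the TAA group also differed from each other in this trend. Each TAA library set against the mean of the other TAA libraries gave 0.0283, 0.373 and -0.395 for replicates 12, 13 and 14. Set against the mean of all TAA libraries, the 2-week replicates 17, 18 and 19 gave -0.435, -0.428 and -0.272. What part RNA quality or fragment length has in this was not tested. With the trend removed, 591 genes were called, 332 higher and 259 lower, of which 344 were among the 488. Medians of cell division (-0.79 for mitosis, -0.62 for replication), fibrillar collagens (-1.36) and T and NK cells (1.15) kept their direction. Those of glutathione transferases (0.39), oxidative phosphorylation (0.21), ribosomal proteins (-0.03) and proteasome subunits (-0.01) were closer to 0 or past it. Short genes such as Cox4i1 (0.26 after removal, adjusted p = 0.117), Sod1 (0.28) and B2m (0.23) lost their call. Col5a1 (-1.36, adjusted p = 0.0592), Col5a2 (-1.70, adjusted p = 0.0519), Col4a1 (-0.94, adjusted p = 0.0787) and Col1a2 (-1.72, adjusted p = 0.0745) were no longer called either. After removal 0 fibrillar collagens were called lower and 1 higher by edgeR, where 3 had been lower. Other collagens had 1 called lower in place of 4, and matrix glycoproteins 3 in place of 8.

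**Figure D4:**
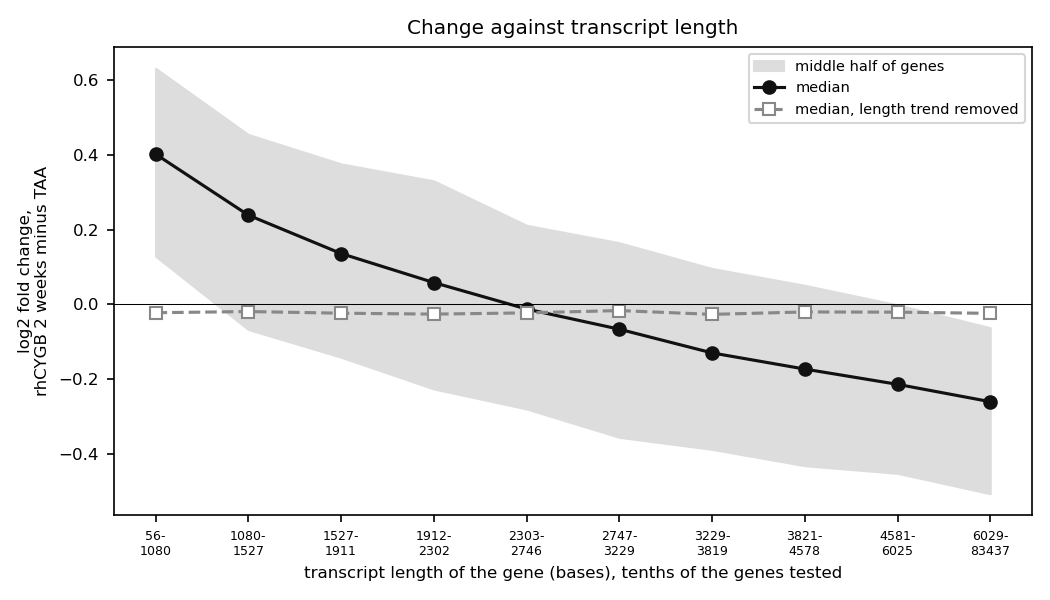
Genes were divided into 10 equal bins by transcript length in bases (horizontal axis). The line gives the median log2 fold change, rhCYGB 2 weeks minus TAA, the grey band the range between the quartiles, and the dashed line the median after the length trend was removed, and the line runs from 0.40 in the shortest bin to -0.26 in the longest.

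All 488 called genes kept their direction, with an unadjusted p under 0.05, in each of the 6 fits that left out 1 library of either group. They were selected in a fit that shares most libraries with these, which favours that outcome, so it is little evidence of stability. The number of genes passing the adjusted threshold was 31, 1 and 2 without TAA replicates 12, 13 and 14. It dropped to 5 and 3 when 2-week replicate 17 or 18 was left out (368 for replicate 19). Leaving out 5-week replicates 23, 27 and 28 gave 1095, 888 and 169. These libraries are not in the contrast and enter through the low-count filter, the scaling and the shared estimate of spread.

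**Figure D5:**
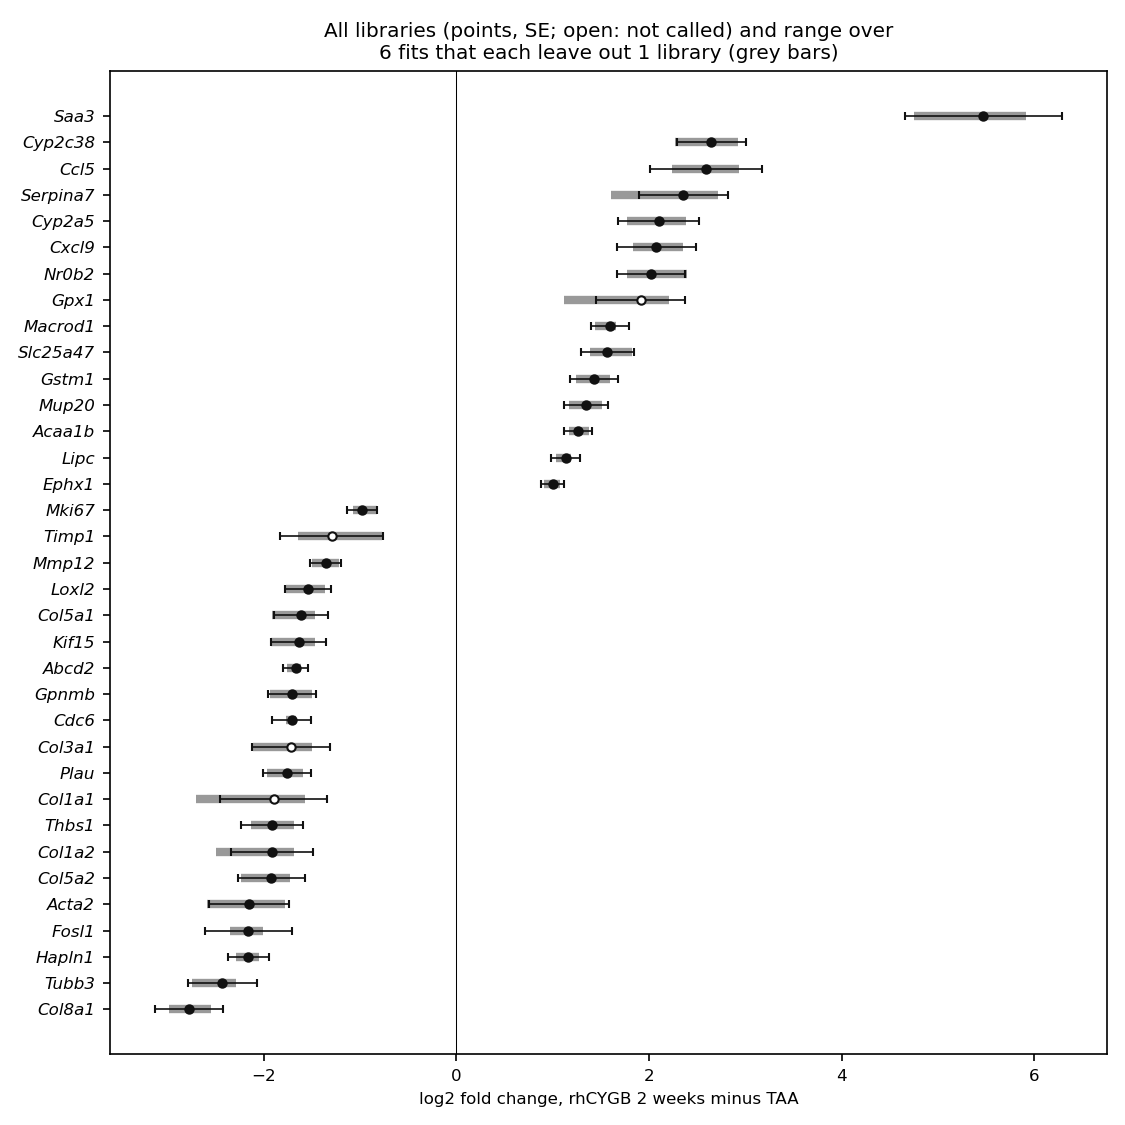
Points give the log2 fold change, rhCYGB 2 weeks minus TAA, of 35 named genes with their SE, open where the gene was not called, and grey bars the range over 6 fits that each left out 1 of the 6 libraries. No bar of these 35 crosses 0, and the bars of Serpina7, Gpx1 and Col1a1 are among the wide ones. The 35 were picked from the named genes. Ranges of some others, not called and not shown, do cross 0, such as Krt19 (-0.28 to 0.94) and Des (-0.35 to 0.20).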

How the data were processed

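RNA of 9 mouse livers was sequenced, 3 libraries in each of 3 groups. Per the submitters' processing notes the authors used FastQC 0.11.7, HISAT2 2.1.0 and StringTie 1.3.4d with mm10. The authors deposited estimated counts per gene and transcript, and FPKM, and per the file headers both stand in 1 table per level. How StringTie output became counts, and whether strand was used, is not given in the sources used here. Estimated counts were rounded to whole numbers. Genes passed edgeR's filter (minimum count 10, minimum total 15), and 14731 of 24532 were tested.

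Counts were scaled by TMM and fitted with edgeR 4.0.16 (R 4.3.3) in 1 quasi-likelihood model of 3 groups and 9 libraries (6 residual degrees of freedom), with Benjamini-Hochberg adjustment over all genes tested. All adjusted p-values are from this fit unless another tool is named. Errors are SE, computed from the log2 fold change and F. The biological coefficient of variation was 24.9%. Alternatives used RLE, upper quartile or total scaling, other filters, only the libraries compared, offsets removing each library's trend over transcript length, DESeq2 1.42.0, limma 3.58.1 on log2(FPKM + 1) and log2(FPKM + 0.1), and each library left out in turn.

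The text names the 25 largest called rises and 25 largest falls with non-overlapping groups and a mean of at least 1 CPM, the 20 lowest p, a panel of 32 genes, and up to 4 called members of each of 64 gene lists (or the member of lowest p). From these the text describes a part, and other members of the lists, called or not, are named beside them, chosen after their values were seen (among those not called Tagln, Myh11, Cdk1, Ccnb1, Cd3e, Cxcl10, Ccr2, Saa1 and Hnf4a). Members and lists were chosen with earlier results of these data known. Coordinates and promoter windows are RefSeq's (GRCm38.p6, the build of mm10). Near-identical families (Gst, Cyp, Mup, Saa, Orm, class I antigen genes) and overlapping genes are uncertain as single genes. Library depth limits precision mainly for genes near 1 CPM. Some genes are not reported here.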

Additional observations from a re-analysis of the deposited data

Results flagged for a closer look

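By the direct edgeR test between the 5-week and the 2-week course, 3 genes were called. With only the libraries of the 2 courses in the fit 0 were called (2451 at an unadjusted p under 0.05, and 770 called by DESeq2 on all libraries). Without any 1 TAA library, 2-week replicate 17 or 18, or 5-week replicate 23, 1 was called. Abcd2 was 1.23 higher on the log2 scale after 5 weeks, Tjp3 stood at a log2 difference of -1.09 and Mcm10 was 2.31 higher. In Mcm10 the RefSeq transcript that holds the reads also changed from library to library. Its reads sat on NM_001305259 (3857 bases) in replicates 13, 17, 18, 19 and 27 and on NM_027290 (3494 bases) in 12, 14, 23 and 28.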

How the results depend on the processing

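No paired analysis was possible because the groups share no replicate number. The count of genes called between 2 weeks and TAA was 488. It was 1722 with library totals only, 1023 with only the 6 libraries compared, 1670 with DESeq2, 1464 with limma on log2(FPKM + 1) and 1331 with limma on log2(FPKM + 0.1), and it ranged from 1 to 1095 when 1 library was left out. The lowest count was without TAA replicate 13 and the highest without 5-week replicate 23. Rises were 7.92% and 8.11% of the limma calls. Between 5 and 2 weeks the count was 3. With only the libraries compared edgeR called 0 genes (2451 at an unadjusted p under 0.05), with the length trend removed 7, with DESeq2 770, and with 1 library left out from 1 to 1889. The highest was without 5-week replicate 27, and without 2-week replicate 19 it was 11. The causes were not tested. Over 19 alternatives 0 of the called named genes changed direction, and 7 named genes that were not called did so in some alternative. The called genes were selected in these same data, which favours a kept direction. List medians changed sign in 23 of 64 lists with library totals, in 10 with the length trend removed and in 9 in some fit without 1 of the 6 libraries. With 3 libraries per group, the spread between libraries and not depth limits most calls, and levels under 1 CPM carry few reads.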
